A study of Rattus norvegicus with 8 samples.

Results

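The genes of the vascular endothelial growth factor (VEGF) family were followed in rat alveolar type II cells, the lung epithelial cells that make surfactant, after expression of constitutively active HIF1a. The family was taken as 9 listed genes, the ligands Vegfa, Vegfb, Vegfc and Pgf and the receptors Flt1, Kdr, Flt4, Nrp1 and Nrp2. A gene entered where the platform annotation gave a probe set that symbol and no other, which held for 8 of the 9 genes with 1 probe set each, among 18166 genes in all. Kdr was not analysed here.

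Freshly isolated cells of male Sprague Dawley rats received AdGFP, an adenovirus carrying green fluorescent protein, or AdHIF1a, an adenovirus carrying the mutant HIF1a. Virus was given at a multiplicity of 20 and left for 3 h, with 2% fetal bovine serum in the medium. The cells then lay on a gel of 80% rat tail collagen with 20% Matrigel, under medium holding 5% rat serum, until total RNA was taken after 24 h. Each rat of the 4 supplied a well of each virus, on a day of its own, so that the 8 arrays form 4 pairs within which rat and day are shared; the sources used here state neither the ages of the rats nor the promoter of each transgene.

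VEGF ligands are secreted factors that drive the growth and permeability of blood and lymphatic vessels. Vegfa signals through the tyrosine kinases Flt1 and Kdr, Pgf and Vegfb bind Flt1, and Vegfc acts mainly through Flt4 on lymphatic endothelium, while the neuropilins Nrp1 and Nrp2 are co-receptors that also bind class 3 semaphorins. In the alveolus the epithelium is a main source of Vegfa and the capillary endothelium carries the kinase receptors, and Vegfa is a textbook target of hypoxia-inducible factors.

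Of the 4 ligand genes, Vegfa and Pgf were higher in the AdHIF1a wells and none was lower. Vegfa rose 2.87-fold and Pgf 9.08-fold, while Vegfb and Vegfc did not pass the test. Of the 4 measured receptor genes, Nrp1 fell 1.82-fold and none rose, and Flt1, Flt4 and Nrp2 did not pass. Calls were made in limma, fitted to the log2 signals with the rat as a block, where p adjusted by Benjamini-Hochberg for all 18166 genes was under 0.05; differences are AdHIF1a minus AdGFP in log2 units. By this rule 5.68% of all genes were called higher and 7.77% lower, or 13.4% together. At an unadjusted p under 0.05 the counts of the members were the same, with 0 ligands lower and 0 receptors higher. At that threshold 2217 of all 18166 genes were higher and 2806 lower.

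Array signals lay on a common scale, with upper quartiles from 7.62 to 7.68. Over probe sets the median of the mean signal was 5.09, and signals near or below it approach the array's floor and understate folds; the values hold no detection calls. The rat probe set of Hif1a itself (17816622) gave 11.03 to 11.32 in the AdGFP wells and 10.48 to 10.77 in the AdHIF1a wells, a difference of -0.48 ± 0.08 (SE, adjusted p = 0.0217 in limma), and this call was lost without rat 2, 3 or 4 (0.0875, 0.0870 and 0.113). The species of the HIF1a transgene and the bases of the probes are unknown here, and so this signal cannot serve as a check of which virus a well received. In bulk RNA, fewer cells of a type and less RNA per cell cannot be told apart, which holds for every difference given here.

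Vegfa, the main growth factor of the family, gave log2 signals of 11.04, 10.51, 10.17 and 10.54 in the AdGFP wells of rats 1 to 4 (probe set 17857560). In their AdHIF1a wells it gave 12.06, 12.20, 11.93 and 12.15. All AdHIF1a wells lay above all AdGFP wells, as they did for 10.3% of all genes, and they spanned 0.27 log2 units against 0.87 in the AdGFP wells. Within rats the difference was 1.02, 1.69, 1.76 and 1.61, smallest in rat 1, whose AdGFP well was the highest. The mean difference was 1.52 ± 0.15 (SE, 4 rats; adjusted p = 0.00465 in limma), or 2.87-fold with a 95% interval of 2.23 to 3.69. This call held in each fit that left out 1 rat, with differences of 1.44 to 1.69 and adjusted p from 0.00694 to 0.0358.

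Pgf encodes placental growth factor, a ligand of Flt1 that does not bind Kdr. Its signals were 4.53, 4.68, 5.13 and 4.49 in the AdGFP wells, around the floor of the array, and 8.05, 8.05, 7.56 and 7.90 in the AdHIF1a wells (probe set 17823303). The groups were 2.43 log2 units apart at their closest points, which were both wells of rat 3. Within rats 1 to 4 Pgf rose 11.5-, 10.3-, 5.39- and 10.6-fold. The mean difference was 3.18 ± 0.20 (SE, 4 rats; adjusted p = 0.00172 in limma), or 9.08-fold with a 95% interval of 6.42 to 12.8, and without rat 3 it was 3.43. Since the AdGFP signal was near the floor, the fold is not an exact size. In log2 units the rise of Pgf exceeded that of Vegfa in 4 of 4 rats, by 2.50, 1.68, 0.67 and 1.80, a mean of 1.66 ± 0.75 (SD).

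**Figure D1:**
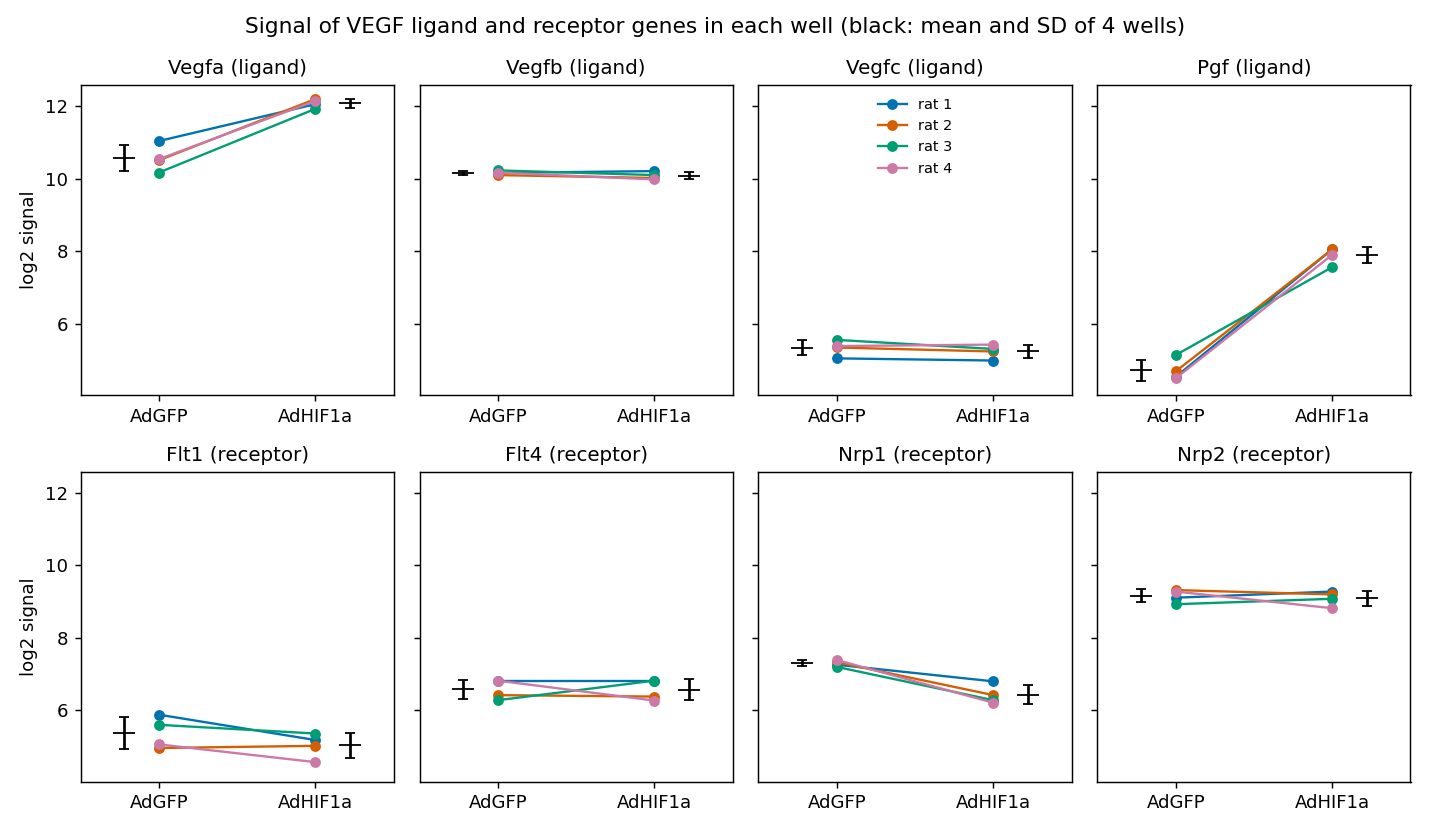
Log2 signal of the 8 measured genes in each well, with AdGFP left and AdHIF1a right in each panel, 1 line per rat, and the mean and SD of the 4 wells of a virus in black. Vegfa and Pgf were higher and Nrp1 lower in the AdHIF1a well of every rat, with no overlap between viruses, and the wells of the other 5 genes overlapped.

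The promoters of Vegfa and Pgf are shown because these genes rose together, each as the 250 bases before the start of a transcript in RefSeq (GRCr8), on the strand of the gene. Capitals mark ACGTG or GCGTG, the core of the element that HIF binds, and the GC box GGGCGG, each on either strand. CACGTG would hold ACGTG on both strands, and no core overlapped a GC box in the windows shown.
Vegfa, chr9:22452604-22452853, plus strand: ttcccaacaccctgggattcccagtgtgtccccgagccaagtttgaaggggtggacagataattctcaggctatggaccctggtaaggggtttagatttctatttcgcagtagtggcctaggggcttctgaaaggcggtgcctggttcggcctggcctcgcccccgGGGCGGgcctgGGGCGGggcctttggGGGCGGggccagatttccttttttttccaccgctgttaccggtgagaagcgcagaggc
Pgf, chr6:110557748-110557997, minus strand: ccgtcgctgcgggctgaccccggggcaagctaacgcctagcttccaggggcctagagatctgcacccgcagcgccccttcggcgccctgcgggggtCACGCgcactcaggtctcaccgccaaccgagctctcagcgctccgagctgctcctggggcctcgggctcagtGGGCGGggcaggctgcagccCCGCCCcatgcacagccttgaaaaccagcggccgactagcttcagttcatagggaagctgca
The Vegfa window held 3 GC boxes, at 84 to 79, 73 to 68 and 58 to 53 bases before the start, and 0 HIF cores. A second Vegfa window in the table, before an internal start, held 0 of either. The Pgf window held 1 HIF core, CACGC at 154 to 150 bases before the start, which reads GCGTG on the opposite strand, and 2 GC boxes. Of all 33469 windows of this length, 36.7% held a HIF core and 30.5% a GC box, and 16.6% held ACGTG. The HIF-binding element known for Vegfa lies farther upstream than this window.

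Vegfb, a ligand of Flt1 linked mainly to cell survival and lipid handling, had signals of 10.16, 10.10, 10.23 and 10.17 in the AdGFP wells and 10.21, 10.02, 10.10 and 9.98 in the AdHIF1a wells (probe set 17640049). The groups overlapped, and the difference of -0.09 had a 95% interval of -0.30 to 0.13 (adjusted p = 0.586 in limma). Vegfc, the lymphatic growth factor, had signals of 5.04, 5.34, 5.55 and 5.38 against 4.98, 5.23, 5.30 and 5.42, again overlapping and near the median of the probe sets (probe set 17711595). Its difference was -0.09 with an interval of -0.32 to 0.13 (adjusted p = 0.567 in limma). For both genes the interval of the signal leaves out a rise as large as that of Vegfa, whose interval began at 1.15. For Vegfc this does not bound the change in RNA, since signals near the median of the probe sets understate folds. Vegfd, a further ligand that was not among the members, lay at 3.36 to 3.70 on all arrays, and its signal cannot be told from the floor.

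Nrp1 encodes neuropilin-1, the co-receptor that strengthens binding of Vegfa to Kdr and also receives class 3 semaphorins. In the AdGFP wells its signal was 7.26, 7.33, 7.20 and 7.39 (probe set 17731247). In the AdHIF1a wells it was 6.80, 6.42, 6.28 and 6.21, below every AdGFP well, as was found for 12.2% of all genes. Within rats the difference was -0.46, -0.91, -0.92 and -1.18, smallest in rat 1 as for Vegfa. The mean difference was -0.87 ± 0.13 (SE, 4 rats; adjusted p = 0.0154 in limma), or 1.82-fold lower with a 95% interval of 1.45 to 2.30. Nrp1 remained called without rat 1 (-1.0, adjusted p = 0.0162) but not without rat 2 (-0.85, 0.0831), 3 (-0.85, 0.0690) or 4 (-0.76, 0.0733); over all alternatives its adjusted p ran from 0.00225 to 0.0831.

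The promoter window of Nrp1 is shown as that of the member that fell, with the same marking.
Nrp1, chr19:73256307-73256556, plus strand: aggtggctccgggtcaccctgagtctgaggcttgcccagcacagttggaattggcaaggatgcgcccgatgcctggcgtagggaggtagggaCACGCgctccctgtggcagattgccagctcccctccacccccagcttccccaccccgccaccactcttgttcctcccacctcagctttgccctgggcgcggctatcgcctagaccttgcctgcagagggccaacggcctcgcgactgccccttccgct
It held 1 HIF core, CACGC at 158 to 154 bases before the start, and 0 GC boxes. Over the 8 measured members, 5 held a HIF core and 6 a GC box in at least 1 window. Of all windows, 36.7% held a core and 30.5% a GC box, counted per window and not per gene. The 5 members with a core were Vegfb, Pgf, Flt1, Nrp1 and Nrp2. A core was thus present before genes that rose, fell or did not pass the test.

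Nrp2, the neuropilin associated with lymphatic vessels, gave 9.11, 9.32, 8.93 and 9.28 in the AdGFP wells and 9.28, 9.20, 9.08 and 8.82 in the AdHIF1a wells (probe set 17859826). It was higher in 2 rats and lower in 2, and the difference of -0.06 had a 95% interval of -0.40 to 0.27 (adjusted p = 0.811 in limma). Flt1, the kinase receptor of Vegfa, Vegfb and Pgf, gave 5.88, 4.96, 5.60 and 5.06 against 5.18, 5.02, 5.36 and 4.57, so that its signals lay around the median of the probe sets (probe set 17671570). It was lower in 3 of 4 rats, with a difference of -0.34 and an interval of -0.70 to 0.01 (adjusted p = 0.195 in limma). Flt4, the receptor of Vegfc, gave 6.81, 6.42, 6.28 and 6.82 against 6.81, 6.38, 6.82 and 6.27 (probe set 17645366). It differed by 0.54 in rat 3 and by -0.55 in rat 4, and the mean of -0.01 had an interval of -0.46 to 0.44 (adjusted p = 0.976 in limma).

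Set side by side, the 4 ligands had a median difference of 0.72 and the 4 receptors of -0.20, against -0.005 for all genes. The ligand median exceeded the receptor median in each rat, by 0.77, 0.89, 0.86 and 1.35, a gap of 0.92 over all rats with an SD of 0.26. No test was made of this gap, since it is a score over chosen members. A median of 4 values rests on the middle ones, so the gap does not carry the size of the rise of Pgf, the highest ligand difference. In every rat the differences of Vegfa and Pgf each lay above those of all 4 receptors. For Vegfa this distance in rats 1 to 4 was 1.48, 2.60, 2.68 and 2.79 to Nrp1 and 1.72, 1.63, 2.00 and 2.10 to Flt1, and it was smaller to Flt4 (1.02, 1.73, 1.22 and 2.16) and Nrp2 (0.85, 1.81, 1.61 and 2.07). For Pgf its mean over rats was 4.05 ± 0.53 (SD) to Nrp1, 3.53 ± 0.68 to Flt1, 3.25 ± 0.68 to Nrp2 and 3.20 ± 0.90 to Flt4, with the smallest single value, 1.89, to Flt4 in rat 3. Vegfb and Vegfc, with differences of -0.09 each, lay among the receptors rather than with the other ligands.

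**Figure D2:**
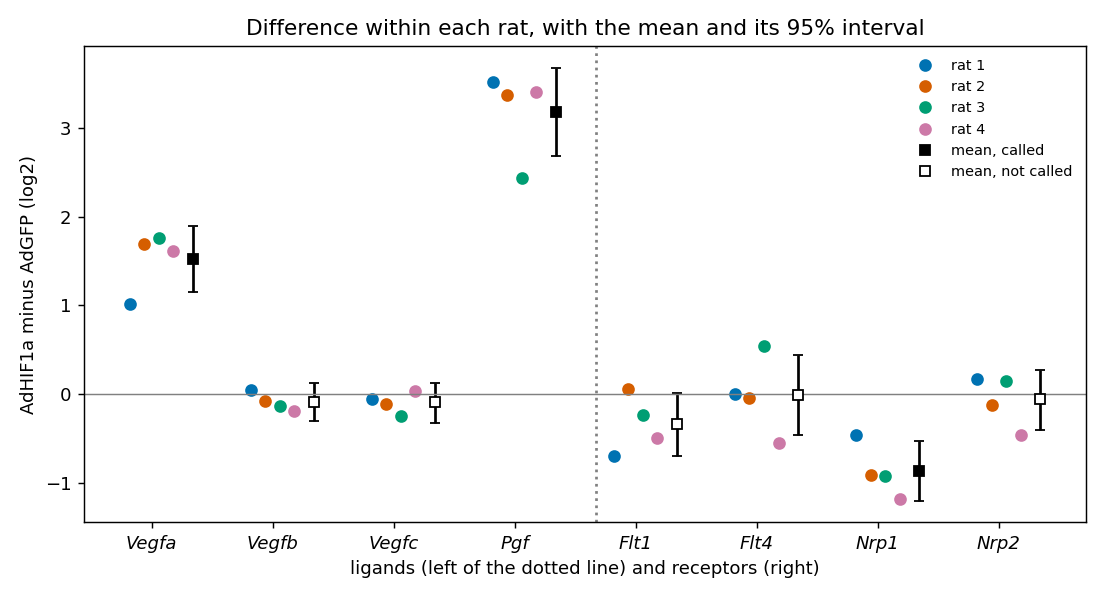
Difference between the AdHIF1a and AdGFP wells of each rat in log2 units (coloured points), with the mean of the 4 rats and its 95% interval from limma (squares, filled where called). Vegfa and Pgf lie above 0 and Nrp1 below it in every rat, and the Pgf difference of rat 3 (2.43) lies apart from the other three (3.37 to 3.52).

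The genes whose signals followed the called members most closely over the 8 arrays were taken by Pearson's r, as a description that rests mainly on the difference between viruses. For Vegfa they were Ptges, the inducible prostaglandin E synthase (r = 0.9987), Egln3, a prolyl hydroxylase that marks HIF for degradation (0.9948), and the co-regulator Cited2 (0.9944). Ptges gave 9.11, 8.26, 7.54 and 8.30 in the AdGFP wells, highest in rat 1 and lowest in rat 3 as Vegfa was. For Pgf they were the integrin subunit gene Itga5 (0.9983), Slc35e1, a gene of the solute carrier family (0.9976), and the metalloproteinase inhibitor Reck (0.9976). For Nrp1 they were the sphingomyelinase gene Smpd1 (0.9931), Hibadh, an enzyme of valine breakdown (0.9926), and Pdpn, the podoplanin gene of alveolar type I and lymphatic cells (0.9920). An r of at least 0.95 was reached by 233 genes with Vegfa, 413 with Pgf and 322 with Nrp1, so likeness at this level was common.

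Class 3 semaphorins, secreted ligands most of which share the neuropilins with VEGF, and their plexin co-receptors were lower for 6 of 10 measured genes. None was higher in limma, so that 60.0% were called against 13.4% of all genes. At an unadjusted p under 0.05, 1 was higher and 6 were lower. The higher gene was Plxna3, outside the naming rule and chosen after its values were seen (0.33 ± 0.09, adjusted p = 0.0717 in limma). The median difference of the 10 genes was -0.37. Sema3b gave 8.10, 8.49, 7.55 and 8.53 in the AdGFP wells and 6.55, 6.14, 5.55 and 6.16 in the AdHIF1a wells, a fall of 4.19-fold (-2.07 ± 0.16, adjusted p = 0.00299 in limma). Sema3c, from a signal of 11.95 ± 0.12 (SD), fell by 0.97 ± 0.13 and the plexin gene Plxna2 by 0.87 ± 0.13. The others, outside the naming rule and chosen after their values were seen, were Sema3e (-0.82), Sema3a (-0.39, near the floor) and Sema3f (-0.36). With 1 rat left out, 1 to 4 of these genes were still called lower: Sema3b was called in every such fit (adjusted p from 0.00689 to 0.0249), Sema3c was lost without rat 2 or 4 (0.0579 and 0.0635) and Plxna2 likewise (0.0730 and 0.0532). Sema3e was also lost without rat 2 or 4 (0.0984 and 0.105), and Sema3a and Sema3f were lost in each of these fits (0.0609 to 0.197). Sema3a was also lost with median centring (0.0711).

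**Figure D3:**
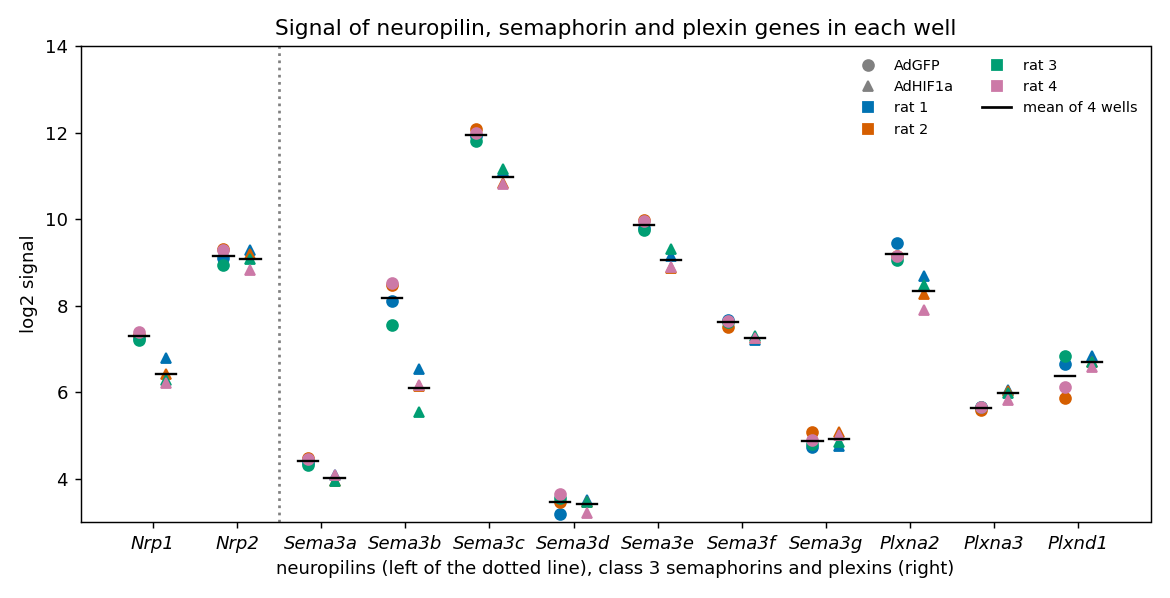
Log2 signal of the neuropilin, class 3 semaphorin and plexin genes in each well, coloured by rat, with circles for AdGFP, triangles for AdHIF1a and a bar at the mean of 4 wells. Nrp1, Sema3a, Sema3b, Sema3c, Sema3e, Sema3f and Plxna2 are lower in all AdHIF1a wells than in all AdGFP wells, as were 12.2% of all genes. Plxna3 is higher in all AdHIF1a wells, as were 10.3% of all genes, while the wells of Nrp2 overlap.

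Genes that carry the signal from VEGF receptors inside the cell showed 2 of 40 measured members higher and 5 lower. Their median difference was -0.06. The share called, 17.5%, was near the 13.4% of all genes, so the called genes are not read as a result about the pathway. At an unadjusted p under 0.05 in limma, 4 were higher and 7 lower. Sphk1, the sphingosine kinase, rose from 6.80 ± 0.19 to 8.58 ± 0.22 (SD), or 3.43-fold (adjusted p = 0.00143 in limma), and Map2k1, the kinase upstream of the extracellular signal-regulated kinases, rose 1.75-fold (adjusted p = 0.00526). Both were called in every fit that left out 1 rat. The lower genes were the adaptor Shb (1.75-fold), the calcineurin catalytic subunit Ppp3ca (1.73-fold) and the protein kinase C gene Prkca (1.67-fold), and, outside the naming rule and chosen after their values were seen, the phospholipase gene Plcg1 (1.39-fold) and the focal adhesion adaptor Pxn (1.36-fold). Without 1 rat, 0 to 3 genes were called lower in limma. Shb was lost without rat 2 or 4 (0.0547 and 0.0509), Ppp3ca likewise (0.102 and 0.0870), Prkca without rat 2, 3 or 4 (0.108, 0.0509 and 0.0829), and Plcg1 and Pxn in all 4 fits that left out a rat (0.0564 to 0.147).

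Among genes whose products bind, process or release VEGF, 1 of 19 was higher and 4 lower, with a median difference of -0.12. The share called was 26.3%, against 13.4% of all genes. At an unadjusted p under 0.05 in limma, 1 was higher and 5 lower. Ccbe1, a matrix protein needed for the processing of Vegfc, rose 3.70-fold from a signal near the floor (4.58 ± 0.21 to 6.47 ± 0.21, SD; adjusted p = 0.00127 in limma), and was called in every fit that left out 1 rat. Sparc, a matricellular protein, fell 4.52-fold, Plau, the urokinase that releases matrix-bound growth factors through plasmin, 2.35-fold, and the heparan sulfate proteoglycan Sdc1 1.39-fold. Ccn2, connective tissue growth factor, fell 2.03-fold and was outside the naming rule, chosen after its values were seen. Sparc and Plau were called in every fit that left out 1 rat, Sdc1 was lost without rat 2, 3 or 4 (0.134, 0.0884 and 0.127), and Ccn2 without rat 1, 2 or 4 (0.0605, 0.119 and 0.140).

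The trafficking and phosphatase genes of VEGF receptors had 2 of 13 lower and 0 higher in limma (4 and 1 at an unadjusted p under 0.05). These were the recycling GTPase genes Rab11a (-0.59 ± 0.10) and Rab4a (-0.37 ± 0.08). Regulators of Vegfa transcription and RNA had 2 of 12 lower and 0 higher in limma (4 and 0 unadjusted), namely Hif1a and Zfp36l1, which promotes decay of AU-rich messenger RNAs including that of Vegfa (-0.75 ± 0.14, adjusted p = 0.0243). Medians of the lists were -0.18 and -0.04. The shares called, 15.4% and 16.7%, were near the 13.4% of all genes. Without 1 rat, 0 or 1 gene of each list was called: Rab11a was lost without rat 2, 3 or 4 (0.0964, 0.0509 and 0.101), and Rab4a and Zfp36l1 in all 4 fits (0.0577 to 0.171).

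**Figure D4:**
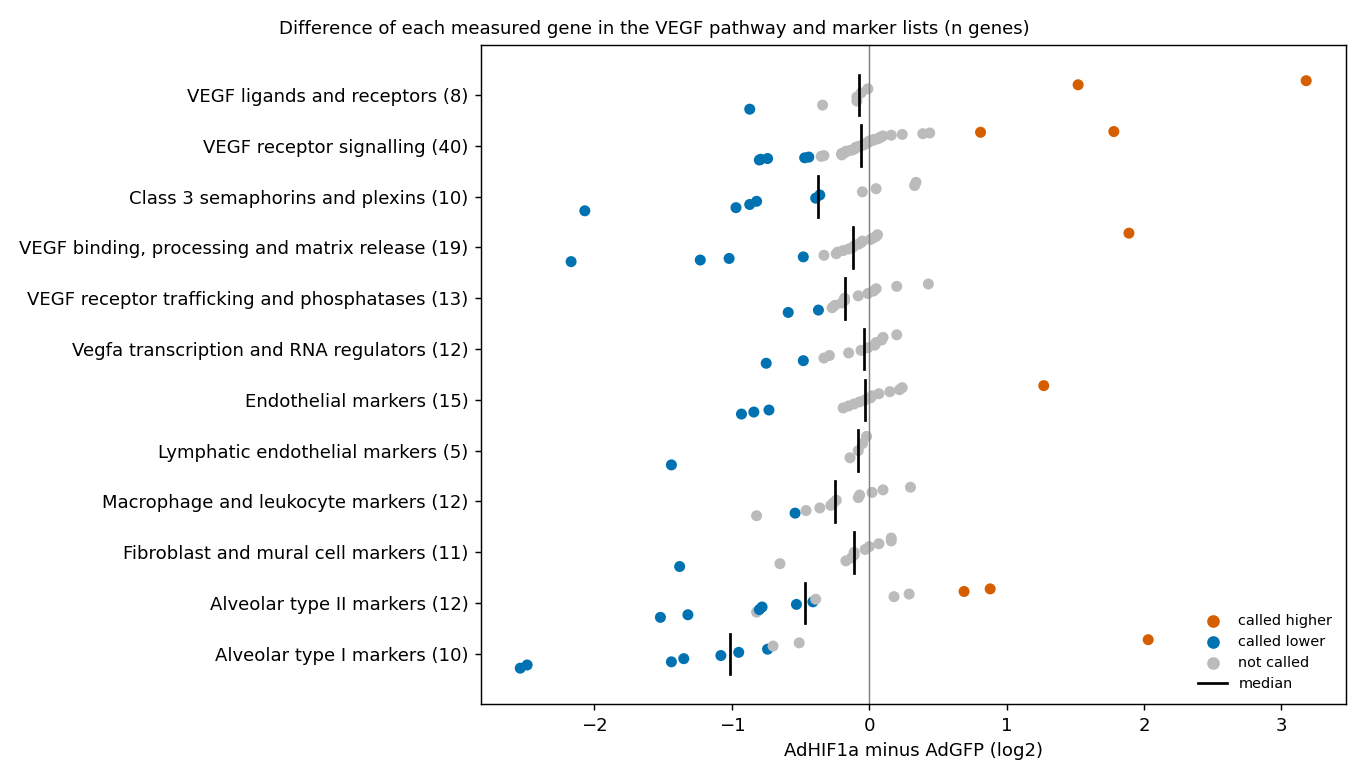
Difference (AdHIF1a minus AdGFP, log2) of each measured gene, by list, coloured by its call in limma, with a bar at the median of the list and the number of genes in brackets. Vegfa and Pgf stand to the right of the other members, and the semaphorin and plexin genes lie mostly to the left of 0.

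Markers of other cells that carry VEGF receptors were set beside these results. Of 15 measured endothelial markers, 1 was called higher and 3 lower, or 26.7% against 13.4% of all genes. At an unadjusted p under 0.05 in limma the counts were also 1 and 3. By mean signal, 9 of the 15 lay below the median of the probe sets. Cdh5, Tek, Tie1, Vwf and Cldn5, picked outside the naming rule, lay between 3.77 and 5.67 in all wells, and none was called in limma. The summed linear signal of the list ran from 1860 to 2371 in the AdGFP wells and from 1327 to 1546 in the AdHIF1a wells. Without Esam, its brightest gene, it was 1247 to 1416 against 936.3 to 1062. Ece1 was the brightest gene left. Its log2 signal was 9.56 ± 0.19 (SD) in the AdGFP wells and 8.72 ± 0.17 in the AdHIF1a wells. These sums follow a few bright genes, while the median difference over the list was -0.03. The junction gene Esam fell by 0.93 ± 0.09, the endothelin-converting enzyme gene Ece1 by 0.84 ± 0.11 and Ramp2, an adrenomedullin receptor component, by 0.73 ± 0.17, and Plvap, a fenestral protein, rose by 1.27 ± 0.13 from 4.90 ± 0.13 (SD). Without 1 rat, Ece1 was lost in the fit without rat 2 (0.0619) and Ramp2 in each fit (0.0615 to 0.142). Of 5 lymphatic endothelial markers, 4 lay near the floor, and Pdpn, shared with type I cells, fell by 1.44 ± 0.18. Pdpn alone was called, or 20.0% of the list against 13.4% of all genes, and was lost without rat 2 (0.0522). The summed signal of these 5 was 4410 to 5597 against 1545 to 2701, of which Pdpn made up 95.1% to 98.6%, and without Pdpn it was 77.16 to 80.85 against 72.38 to 76.16. The part of these cells in the fall of Nrp1 was not tested.

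Among macrophage and leukocyte markers 1 of 12 was lower and 0 higher in limma, or 8.33% against 13.4% of all genes. At an unadjusted p under 0.05, 5 were lower and 1 higher. At that threshold 2806 of all 18166 genes were lower and 2217 higher. The median difference of the list was -0.26. The lower gene was Adgre1 (-0.54 ± 0.12, adjusted p = 0.0434), whose mean signal of 4.10 was below the median of the probe sets. Its call was lost without rat 2, 3 or 4 (0.143 to 0.161), without the block (0.147), with a random block (0.115), with quantile normalization (0.0521) and with median centring (0.0552). Mrc1, the mannose receptor, and Csf1r, the receptor of macrophage colony-stimulating factor, were outside the naming rule and chosen after their values were seen; they differed by -0.82 ± 0.21 and -0.46 ± 0.12 (adjusted p = 0.0586 and 0.0590), with negative values in 4 of 4 rats. Both were called lower with quantile normalization (0.0394 and 0.0427), a filter of probe sets at the median (0.0386 and 0.0337) and array weights (0.0464 and 0.0381). The variance prior from the named genes alone also called both (0.0207 and 0.0230). Median centring and the trended prior called Mrc1 (0.0320 and 0.0455) but not Csf1r (0.0605 and 0.0527). Neither was called without the block (0.298 and 0.437), with a random block (0.249 and 0.382) or in any fit without 1 rat (0.0550 to 0.229). The summed signal of the list was 7050 to 8619 in the AdGFP wells and 8222 to 9820 in the AdHIF1a wells. The lysozyme gene Lyz2 alone made up 73.8% to 90.1% of that sum, with a difference of 0.30 ± 0.10 (adjusted p = 0.135), and without it the sum was 1388 to 2157 against 859.4 to 2177. The part of these cells in the values of the members was not tested.

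Among fibroblast and mural markers 1 of 11 was lower, the pericyte gene Rgs5 (-1.38 ± 0.13), and 0 were higher in limma, with 2 lower and 0 higher at an unadjusted p under 0.05. These genes had a median difference of -0.11 and a summed signal of 469.6 to 594.4 against 360.1 to 428.5. Without Rgs5 the sum was 300.7 to 367.2 against 286.7 to 318.6. The share called, 9.09%, was below the 13.4% of all genes.

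The surfactant gene Sftpc, which defines type II cells, was brighter than 99.8% of probe sets by its mean signal, and Sftpb than 98.5%. Type I markers were also bright, with Ager above 99.4%, Emp2 above 99.1% and Pdpn above 98.8%, so that these levels do not single out type II cells; signals of different probe sets are not a measure of their relative amounts. The mean signal over 12 type II markers, which include the general epithelial genes Cdh1 and Epcam, was 10.52 to 10.88 in the AdGFP wells and 10.07 to 10.56 in the AdHIF1a wells. Of these, 2 were higher and 6 lower, or 66.7% called against 13.4% of all genes. Their median difference was -0.47. At an unadjusted p under 0.05 in limma, 3 were higher and 8 lower. Sftpa1 and Sftpb, which encode surfactant proteins, rose by 0.88 and 0.69, and Muc1, Napsa and Lamp3 fell by 1.32, 1.52 and 0.78. Sftpc, outside the naming rule, was higher in 4 of 4 rats, by 0.29 ± 0.08 (SE), and was not called (adjusted p = 0.084 in limma). The other uncalled markers were also outside the rule and chosen after their values were seen. Slc34a2 (-0.82 ± 0.22, adjusted p = 0.070 in limma) and Abca3 (-0.39 ± 0.11, 0.0773) were lower in 4 of 4 rats. Etv5 was higher in 3 of 4 (0.18 ± 0.12, 0.419). Type I markers, whose cells are also a source of Vegfa in the alveolus, were lower for 7 of 10 and higher for 1. Their median difference was -1.01. The share called was 80.0%, against 13.4% of all genes, with 9 lower and 1 higher at an unadjusted p under 0.05 in limma. Akap5, Aqp5 and Pdpn fell by 2.54, 2.49 and 1.44 and Igfbp2 rose by 2.03. The mean signal of the type I markers was 8.95 to 9.52 in the AdGFP wells and 8.05 to 8.70 in the AdHIF1a wells. Its part in the values of Vegfa was not tested. With 1 rat left out, 2 to 4 type II markers and 1 to 5 type I markers were called lower. Sftpa1, Muc1, Akap5 and Igfbp2 were called in every such fit, while Sftpb and Lamp3 were lost without rat 2, 3 or 4 (0.0568 to 0.0928), Sftpb also without the block (0.128) and with a random block (0.0968), Napsa without rat 2 (0.0509) and Aqp5 without rat 2 (0.0607).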

How the data were processed

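The deposited file holds log2 signals per probe set for 8 Affymetrix arrays. Per the submitters' processing notes the authors made them with Affymetrix Expression Console; the sources used here give no algorithm, version or genome build. Their range, 1.42 to 13.57, showed the deposited values to be on a log2 scale. Of 36685 probe sets, 18511 carried 1 gene symbol, 575 several and 17599 none. Gene identifiers of 18394 matched RefSeq (GRCr8), which changed 0 symbols, and the probe set with the highest mean stood for a gene, giving 18166 genes. The number of arrays limits the precision.

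limma 3.58.1 in R 4.3.3 (lmFit, eBayes) was fitted to all probe sets with the rat as a fixed block. P-values are two-sided and adjusted by Benjamini-Hochberg over the genes, and no dim probe sets were left out. The series' design gives the pairing. Deviations of a rat's wells from the group means correlated at 0.18 to 0.26 across genes, against -0.22 to 0.08 for different rats. Since each group was centred on its own mean, positive values within rats push those between rats down. The contrast is thus partly built in and is no separate check of the pairing. At most 1.95% of values were equal in any pair of arrays. On simulated arrays of this size, with 50 of 18166 genes at each shift, the same steps called 100% and 98% of genes shifted by -2 and 2 log2 units, 68% and 72% of those shifted by -1 and 1, and 0.0278% of the others. In the data 13.4% of genes were called, and the adjustment depends on that share, so these rates need not hold there. Promoter windows came from RefSeq (GRCr8), read with Python 3.11.15.

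Members and the 11 other gene lists were chosen with earlier results of these data known. Named by rule were all members, Hif1a, the 3 genes most like each called member, and per list and direction the 3 called genes with the smallest adjusted p and the largest difference (2 with the smallest p in a list with no call). Cdh5, Tek, Tie1, Vwf, Cldn5, Lyz2, Sftpc, Ager and Emp2 were named outside this rule, as were the genes so marked in the text. Alternatives were no block, a random block, quantile normalization, median centring, 2 filters on dim probe sets, array weights, a trended robust prior, the mean of probe sets, adjustment over all probe sets, a threshold of 0.01, each rat left out and, chosen after seeing the data, a variance prior from the named genes alone.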

Additional observations from a re-analysis of the deposited data

Results flagged for a closer look

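The rise of Pgf in rat 3 lay apart from that in the other rats, at 2.43 log2 units against 3.37 to 3.52. That rat had the highest Pgf signal of the AdGFP wells (5.13) and the lowest of the AdHIF1a wells (7.56). Of 24 groups of 4 values checked among the members this was the only such case, and chance gives about 1 in 20.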

How the results depend on the processing

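Vegfa and Pgf stayed called higher under all 16 alternatives, with differences of 1.44 to 1.69 and 3.07 to 3.43. Nrp1 stayed lower, at -1.0 to -0.76, and was called in 12 of 16; it was not called at a threshold of 0.01 or without rat 2, 3 or 4, so that the count of lower members was 0 there and 0 to 1 over the fits without 1 rat (limma; 2, 1 and 1 members were lower at an unadjusted p under 0.05 without rats 2, 3 and 4). Vegfb, Vegfc, Flt1, Flt4 and Nrp2 were called under none. Flt4 ran from -0.20 to 0.17, Nrp2 from -0.14 to 0.07 and Vegfd from -0.08 to 0.09 with 1 rat left out, and Vegfd was -0.05 with quantile normalization and -0.08 with median centring; the cause was not tested. The gap between ligand and receptor medians ran from 0.83 to 1.02. Over all genes 2443 calls became 561 to 2006 with 1 rat left out, 656 at a threshold of 0.01 and 3674 with the variance prior from the named genes alone. The share of calls that were higher, 42.2%, became 56.1% without rat 2 and 53.2% at 0.01, 38.8% with quantile normalization (935 higher, 1475 lower) and 32.4% with median centring (635 higher and 1324 lower, against 1032 and 1411). Median centring moved the median of all genes from -0.005 to -0.087. Without the rat as a block 2951 genes were called; the same members were called as with it, and among the other genes named Sftpb (0.128) and Adgre1 (0.147) were lost. Rab4a was lost with median centring (0.0620), Ramp2 with quantile normalization (0.0503) and Pxn likewise (0.0528). With adjustment over all probe sets Adgre1 (0.0622), Rab4a (0.0639), Ramp2 (0.0700), Pxn (0.0528), Sema3a (0.0624) and Sema3f (0.0642) were lost, and Sema3a with the trended prior (0.0624). Hibadh was lost with median centring (0.0516). Smaller fits have fewer arrays by construction. Signals near the floor limit the size of the Pgf fold and what can be said of Flt1, Vegfc and Vegfd.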
